A study of Mus musculus with 30 samples.

Results

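The 10 genes Bambi, Smad1, Smad5, Smad6, Id1, Id2, Id3, Bmp4, Bmp2 and Bmpr1a, which belong to the bone morphogenetic protein (BMP) pathway, were chosen by name, as ligand, receptor, signal carriers, inhibitors and target genes, out of 29555 genes in the RNA tables. All 10 were measured and all 10 passed the filter on low counts in each of 3 RNA comparisons. Peaks of open chromatin within the genes or within 10 kb of them were taken from both peak tables, 82 of 158917 peaks in the table of epiblast stem cells and endoderm and 85 of 181059 in the table of epiblast stem cells alone.

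RNA-seq and ATAC-seq, which reads open chromatin by transposase insertion, were run on mouse epiblast stem cells (EpiSCs), which resemble the epiblast shortly before gastrulation, and on definitive endoderm (DE) made from them. EpiSCs grew on feeder cells in N2B27 with Fgf2, ActivinA and the Wnt pathway inhibitor NVP-TNKS656 and were lifted with collagenase, which leaves most feeders behind. C57BL/6 (B6) EpiSCs gave 5 RNA and 4 ATAC libraries, PWK/PhJ (PWK) EpiSCs 3 and 2, B6.129 F1 (F1) EpiSCs 3 RNA libraries, and DBA/2J (DBA) EpiSCs 1 of each. B6 DE gave 4 libraries of each assay: cells received CHIR99201, a Wnt agonist, with ActivinA for 16 h, then ActivinA with LDN193189, an inhibitor of BMP type I receptor kinases, for 24 h (the labels also give 46 h in all), and CXCR4+ cells were sorted on magnetic beads. All groups thus saw ActivinA, and only DE saw the BMP inhibitor and the Wnt agonist. No DE without the inhibitor is analysed here, so the 2 agents cannot be told apart from each other or the change of cell state. Nor can they be told apart from sorting, described for DE alone, or from feeder cells, Fgf2 and NVP-TNKS656, described for EpiSCs alone. The labels call the samples biological replicates without saying whether they are separate lines, so p-values measure the spread between these samples, which may in part be technical.

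BMP ligands are secreted dimers that bind pairs of type I and type II receptor kinases. The type I receptors phosphorylate Smad1, Smad5 and Smad9, which join Smad4, enter the nucleus and raise target genes, of which the Id genes are the best known. In the mouse gastrula BMP4 from the extraembryonic ectoderm drives mesoderm formation at the posterior side, while the anterior streak that gives endoderm forms where Nodal is high and BMP antagonists are near, and for this reason BMP inhibitors are used in endoderm protocols.

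The sequence before the start site of 4 members is shown, because the RNA of Id3, Smad1 and Smad6 rose in DE and that of Id2 fell, and each window overlaps a peak whose accessibility is compared between the states further on. Each line gives the 250 bases before the RefSeq start (GRCm38.p6), 5′ to 3′ on the gene's strand, with GGCGCC, a GC-rich element bound by Smad1 and Smad5, and GTCT or its reverse complement AGAC, the element bound by Smad4, in capitals.
Id3 (chr4:136143572-136143821, plus strand): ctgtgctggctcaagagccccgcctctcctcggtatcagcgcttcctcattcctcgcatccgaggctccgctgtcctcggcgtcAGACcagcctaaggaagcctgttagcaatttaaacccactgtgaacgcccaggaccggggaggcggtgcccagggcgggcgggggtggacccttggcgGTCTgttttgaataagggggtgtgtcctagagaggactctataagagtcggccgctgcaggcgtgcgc
Smad1 (chr8:79399429-79399678, minus strand): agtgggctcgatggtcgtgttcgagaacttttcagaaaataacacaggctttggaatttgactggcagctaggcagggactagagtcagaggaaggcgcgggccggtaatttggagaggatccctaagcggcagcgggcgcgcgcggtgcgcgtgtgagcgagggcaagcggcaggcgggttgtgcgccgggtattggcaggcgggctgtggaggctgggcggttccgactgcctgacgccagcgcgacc
Smad6 (chr9:64022060-64022309, minus strand): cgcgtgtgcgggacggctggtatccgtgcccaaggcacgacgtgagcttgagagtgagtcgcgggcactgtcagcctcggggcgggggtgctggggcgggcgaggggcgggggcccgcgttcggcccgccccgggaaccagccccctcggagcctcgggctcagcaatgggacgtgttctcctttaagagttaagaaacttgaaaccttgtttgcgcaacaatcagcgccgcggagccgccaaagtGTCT
Id2 (chr12:25096093-25096342, minus strand): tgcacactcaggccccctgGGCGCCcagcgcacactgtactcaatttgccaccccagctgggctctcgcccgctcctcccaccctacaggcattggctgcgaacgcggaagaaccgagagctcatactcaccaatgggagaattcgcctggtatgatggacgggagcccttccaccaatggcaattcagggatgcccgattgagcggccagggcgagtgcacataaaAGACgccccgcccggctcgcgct
Id3 held 2 of the short Smad4 elements and no GGCGCC, Id2 held 1 of each, Smad6 held 1 short element and no GGCGCC, and Smad1 held neither. Both strands were searched, and no match of one motif can share bases with a match of the other. Of 32851 such windows of all genes, 9.59% held GGCGCC and 82.9% held GTCT or AGAC. The joint BMP response element, GGCGCC followed by 5 bases and GTCT on either strand, was in none of the windows of 7 members that have one, and in 0.0700% of all windows. A match of letters is a description and does not show binding.

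Libraries held 22829536 to 66563933 counts in RNA and 3751526 to 9571127 in ATAC. Of 9 DE markers 8 rose in DE, with Sox17 at 1138 to 1366 CPM (counts scaled to a common library size by TMM) against 0.650 to 9.76 in B6 EpiSCs, and the ninth, Epcam, lay under 6 CPM in every library. Pou5f1, the pluripotency factor also called Oct4, lay at 1007 to 1371 CPM in B6 EpiSCs and at 2.46 to 6.39 in 3 DE libraries, and at 35.2 in DE replicate 2. Some B6 EpiSC libraries carried more DE marker RNA than others: the summed level of the 9 markers was 337, 265 and 199 CPM in replicates 1, 4 and 44 against 70.9 and 39.2 in replicates 2 and 51. The 15 feeder fibroblast markers ran the other way, from 744 CPM in summed level in EpiSC replicate 1 to 6568 in replicate 51. Their sum was 243 to 474 CPM in DE, where 13 of them fell, and none was at 0 throughout a group. Fn1 had the highest mean of the 15, at 588 to 2967 CPM in B6 EpiSCs and 124 to 176 in DE, so the sum rests heavily on that gene. Col1a1, the next in B6 EpiSCs, had 8.21 to 754 CPM there. In DE replicate 51 genes on chromosome 8, which holds Smad1, had a median log2 ratio of 0.45 to the mean of the remaining DE libraries, and genes elsewhere one of -0.01.

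In endoderm 5 of the 10 genes were higher than in B6 EpiSCs, namely Bmp2, Smad1, Smad6, Bambi and Id3, by 3.26 to 4.50 log2 units, and 3 were lower, namely Bmpr1a, Smad5 and Id2, by -0.95 to -2.36. Bmp4 and Id1 did not pass the test. The quasi-likelihood test of edgeR was adjusted over 14085 genes by the Benjamini-Hochberg method and called genes at an adjusted p under 0.05. It called 31.5% of all genes higher and 30.6% lower, so most genes changed, and being called does not in itself set a member apart. B6 DE and B6 EpiSC libraries did not overlap for 8 of the 10 members and for 7749 of the 14085 genes. A lack of overlap therefore does not set a member apart either. The median absolute log2 change was 2.81 over the 10 members, 1.44 over 47 other tested pathway genes described below and 1.03 over all genes tested. The signed medians were 1.46, -0.23 and -0.01. The members were chosen with earlier results of these data known, so these medians do not set them apart either. In bulk RNA, fewer cells of a type and less RNA per cell cannot be told apart, which holds for every level below.

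**Figure D1:**
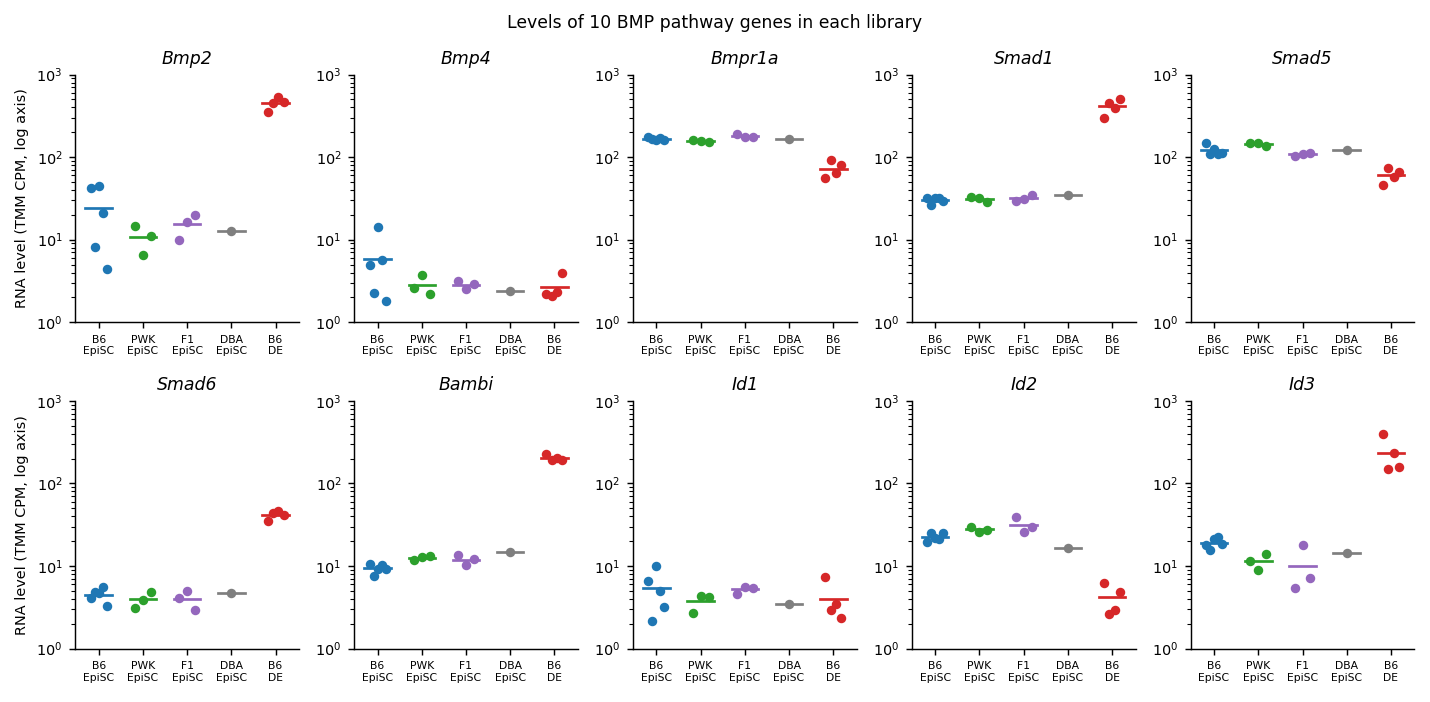
Level of each of the 10 genes in every RNA library (points, TMM-scaled CPM, log axis) with the group mean (line) for the 4 EpiSC groups and B6 DE. The DE points of Bmp2, Smad1, Smad6, Bambi and Id3 lie above every EpiSC point, those of Bmpr1a, Smad5 and Id2 lie below every EpiSC point, and those of Bmp4 and Id1 fall among them.

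Bmp2, a ligand, had the widest range among EpiSCs of the members that changed. It stood at 42.3, 8.20, 44.6, 21.3 and 4.36 CPM in B6 EpiSC replicates 1, 2, 4, 44 and 51 and at 348, 453, 538 and 471 CPM in DE replicates 2, 4, 44 and 51. The lowest DE library was far above the highest EpiSC library, and within EpiSCs replicates 1, 4 and 44, the libraries with more DE marker RNA, were the high ones. The rise was 4.27 log2 units (SE 0.63, adjusted p = 0.000204, edgeR), and 3.99 to 4.62 when each library was left out in turn. The part of cells on the way to endoderm in the EpiSC level of Bmp2 was not tested.

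Bmp4, the ligand named above as a mesoderm inducer, was low in all libraries. Its levels were 4.90, 2.24, 14.1, 5.74 and 1.80 CPM in the EpiSC replicates in the same order and 2.22, 2.09, 2.30 and 3.97 CPM in DE. Replicate 4 was the highest EpiSC library, as for Bmp2, and the groups overlapped. The difference of -1.08 (SE 0.60) did not pass the test (adjusted p = 0.140, edgeR) and was -0.42 without EpiSC replicate 4. Gm15217 and Gm15222 overlap Bmp4 in the annotation, and since the strand setting of the counting is not given in the sources used here, reads of the 3 genes may not have been told apart.

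Bmpr1a encodes ALK3, a type I receptor and one of the kinases that LDN193189 inhibits. It was the most even of the members in EpiSCs, at 173, 166, 161, 171 and 162 CPM, and stood at 55.9, 91.4, 63.6 and 79.7 CPM in DE. Every DE library was below every EpiSC library. The fall was -1.15 log2 units (SE 0.14, adjusted p = 7.20e-05, edgeR).

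The 2 Smad genes that carry the BMP signal moved in opposite directions. Smad1 rose from 31.9, 26.4, 32.4, 31.7 and 29.0 CPM to 300, 447, 394 and 501 CPM, a change of 3.81 (SE 0.16, adjusted p = 2.99e-07, edgeR). DE replicate 51 was the highest, and without it, given the raised chromosome 8 there, the change was 3.71. Smad5 went from 148, 108, 124, 109 and 113 CPM to 46.5, 72.8, 56.9 and 65.5 CPM, a change of -0.95 (SE 0.16, adjusted p = 0.000412, edgeR). For neither gene did the groups overlap.

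Both inhibitors rose. Smad6, an inhibitory Smad that keeps Smad1 from its receptor and from Smad4, went from 4.05, 4.87, 4.77, 5.61 and 3.25 CPM to 35.4, 43.9, 45.9 and 41.8 CPM (log2 change 3.26, SE 0.19, adjusted p = 9.40e-07, edgeR). Bambi, a membrane pseudoreceptor that resembles a type I receptor but lacks the kinase, went from 10.7, 7.46, 9.14, 10.4 and 9.11 CPM to 228, 192, 202 and 190 CPM. Its change of 4.50 (SE 0.16, adjusted p = 2.99e-07, edgeR) was the greatest of the 10, and the DE libraries lay close together, with an SD of 17.2 about a mean of 203 CPM (n = 4).

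The 3 Id genes are classic BMP targets and code for helix-loop-helix proteins that hold back lineage factors. Id3 was called higher in DE, Id2 was called lower and Id1 was not called. Id3 rose from 18.1, 15.5, 21.1, 22.6 and 18.3 CPM to 396, 148, 236 and 158 CPM (log2 change 3.69, SE 0.32, adjusted p = 6.54e-06, edgeR). DE replicate 2, the library with the most Pou5f1 among DE, was the highest, and without it the change was 3.28. Id2 fell from 19.5, 24.8, 21.7, 21.1 and 24.8 CPM to 6.24, 2.63, 2.97 and 4.83 CPM (log2 change -2.36, SE 0.30, adjusted p = 7.43e-05, edgeR), with DE replicate 2 again the highest of its group. Id1 was low and uneven in both states, at 6.50, 2.16, 9.90, 4.91 and 3.21 CPM in EpiSCs and 7.37, 2.89, 3.51 and 2.37 CPM in DE. The groups of Id1 overlapped, and its difference of -0.34 (SE 0.52) did not pass the test (adjusted p = 0.592, edgeR). The differences between the changes of the Id genes were not tested.

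Another 60 genes of the pathway, in 6 lists by role, were set beside the members, and 47 of them passed the filter on low counts. Of those 14 were higher and 15 lower in DE, shares near those of all genes (31.5% and 30.6%), with a median log2 change of -0.23. Of 6 tested ligand genes besides Bmp2 and Bmp4, 2 rose and 2 fell. Bmp7 rose by 3.32 (SE 0.55) from a mean of 25.6 to 248 CPM. Gdf2, which codes for BMP9, gave 0 to 2 counts per EpiSC library and 95 to 329 per DE library.

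Besides Bmpr1a, 5 of 9 tested receptor and co-receptor genes were lower and 1 was higher, where 30.6% and 31.5% of all genes were, and the list was not tested against other genes. Of the 5 that fell, Eng and Acvrl1 were highest among B6 EpiSCs in replicate 51, the library with the most feeder marker RNA, and 13 of 15 feeder markers fell in DE; the part of feeder RNA in their fall was not tested. Bmpr2, the type II receptor, fell by 1.44 on the log2 scale (SE 0.13), and Bmpr1b, a type I receptor, fell by 1.94 (SE 0.61). Acvr2b, a type II receptor shared by activins and BMPs, rose by 4.97 (SE 0.52), from a mean of 2.93 to 88.4 CPM.

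Of 14 tested secreted antagonist and processing genes, 4 rose and 3 fell. Cer1, which codes for a secreted antagonist of BMP and Nodal and is itself a DE marker, rose by 6.32 (SE 1.00), from 3.75 to 165 CPM in EpiSCs to 3431 to 9572 CPM in DE, and was highest within EpiSCs in replicates 1, 4 and 44. Tll1, a protease that cleaves the antagonist chordin, fell by 2.46 (SE 0.49).

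Among the intracellular inhibitors, the other inhibitory Smad moved against Smad6. Smad7, which blocks receptors of both the BMP and the activin branch, fell by 2.79 (SE 0.16), from 74.0 to 115 CPM in EpiSCs to 12.3 to 14.9 CPM in DE, and the groups did not overlap. Ski, a corepressor of Smads, fell by 1.82 (SE 0.15). Of 9 tested inhibitor genes besides Bambi and Smad6, 2 were higher and 4 lower. Of 8 tested target genes besides Id1, Id2 and Id3, 4 were higher and 1 lower: Gata3 rose by 3.90 (SE 0.58) and Id4, the fourth Id gene, by 2.85 (SE 0.58), from a mean of 1.31 to 9.13 CPM. Smad4, the partner of Smad1 and Smad5, was the 1 tested gene of its list besides them and was higher (0.66, SE 0.13, adjusted p = 0.00162, edgeR).

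**Figure D2:**
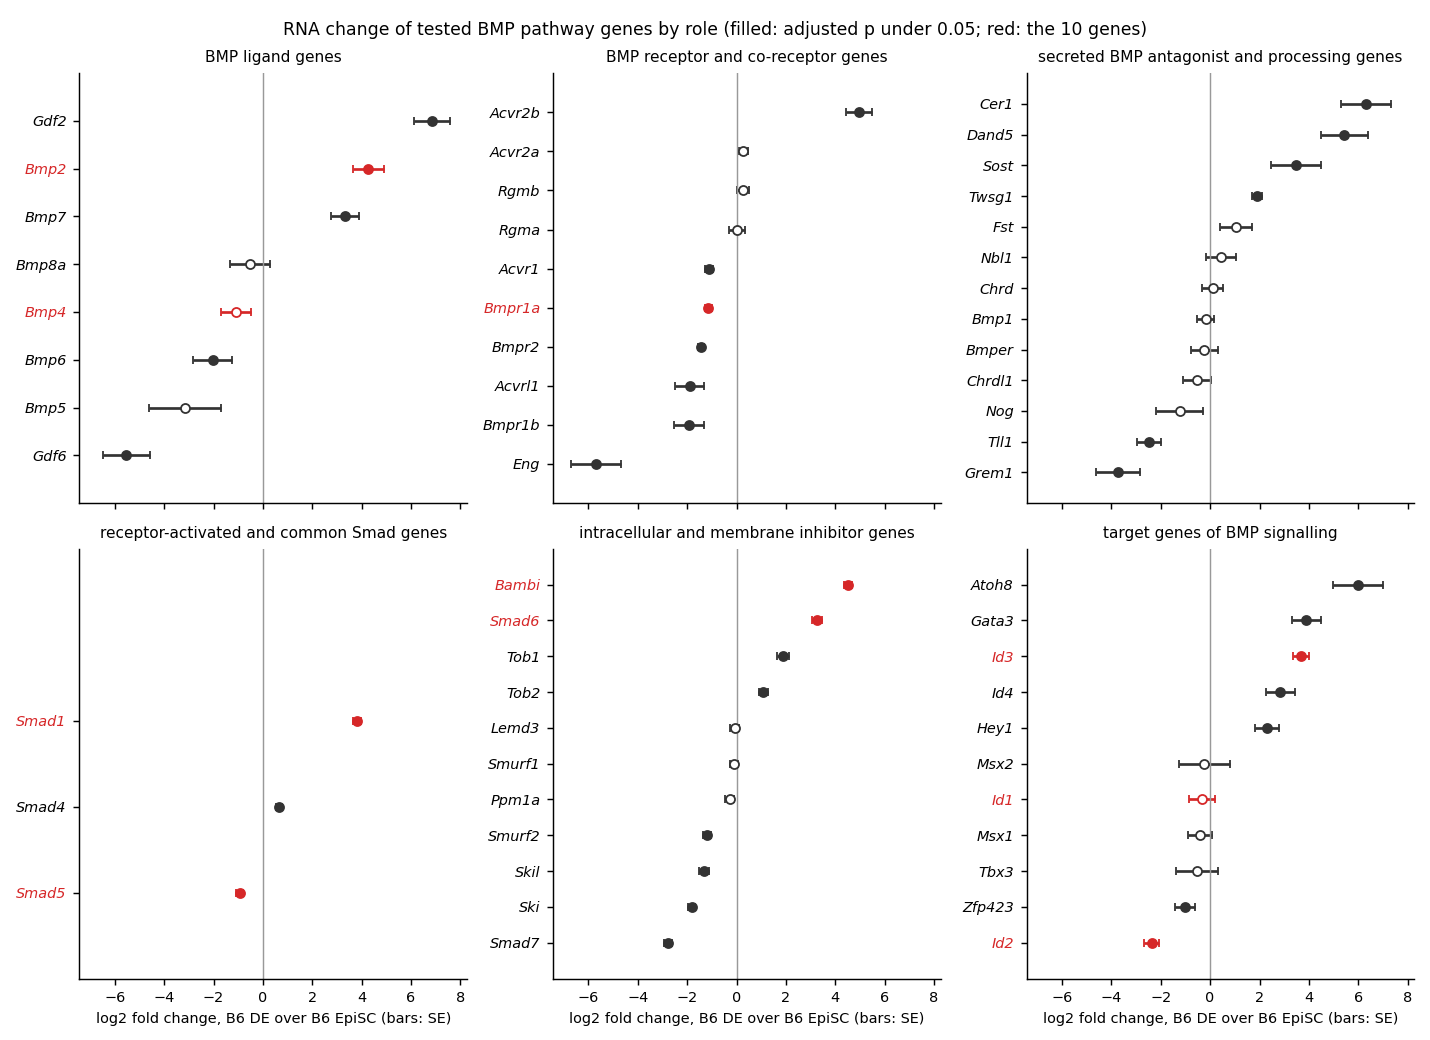
Log2 change in RNA between B6 DE and B6 EpiSCs (x axis, bars are standard errors of the fit) for pathway genes that passed the filter on low counts, in 6 panels by role. Red marks the 10 members and filled points passed the test. Changes in both directions occur in every panel, and Bambi and Smad6 lie at the opposite end of their panel from Smad7.

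Of the 82 peaks near members in the table of EpiSCs and DE, 74 passed the filter on low counts. In DE 29 of them were more accessible and 11 less, against 32.6% higher, 25.0% lower and 57.6% in either direction over all 113870 peaks tested. The median log2 change was 0.40 near members and -0.01 over all peaks. None of the 11 tested peaks within 1 kb of a member's annotated start was called by edgeR, 1 had an unadjusted p under 0.05 and DESeq2 called 0, where 31.1% of 19670 such peaks of all genes and 63.2% of other peaks were called. The 1 kb limit matters here: the outermost peak inside it, upstream of Smad6 at -0.92 kb, was not called (0.32, SE 0.27), while those next outside it, at -1.18 kb from Smad6 (1.26, SE 0.32) and -1.37 kb from Id3 (3.78, SE 0.55), were. Of the same members' peaks farther from the start, 17 were higher and 7 lower of 33 within the genes, and 6 were higher and 0 lower of 17 outside them. Bambi, Id1 and Bmp2 have no start in the table used and are not in these counts of position, so the count of 0 does not cover them. A peak over one end of Id1 was called (-1.15, SE 0.28), as were peaks in Bmp2 near one end (1.83, SE 0.44, and -1.50, SE 0.46). The stronger Bambi peak, near one end of that gene, was not called (0.08, SE 0.13).

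**Figure D3:**
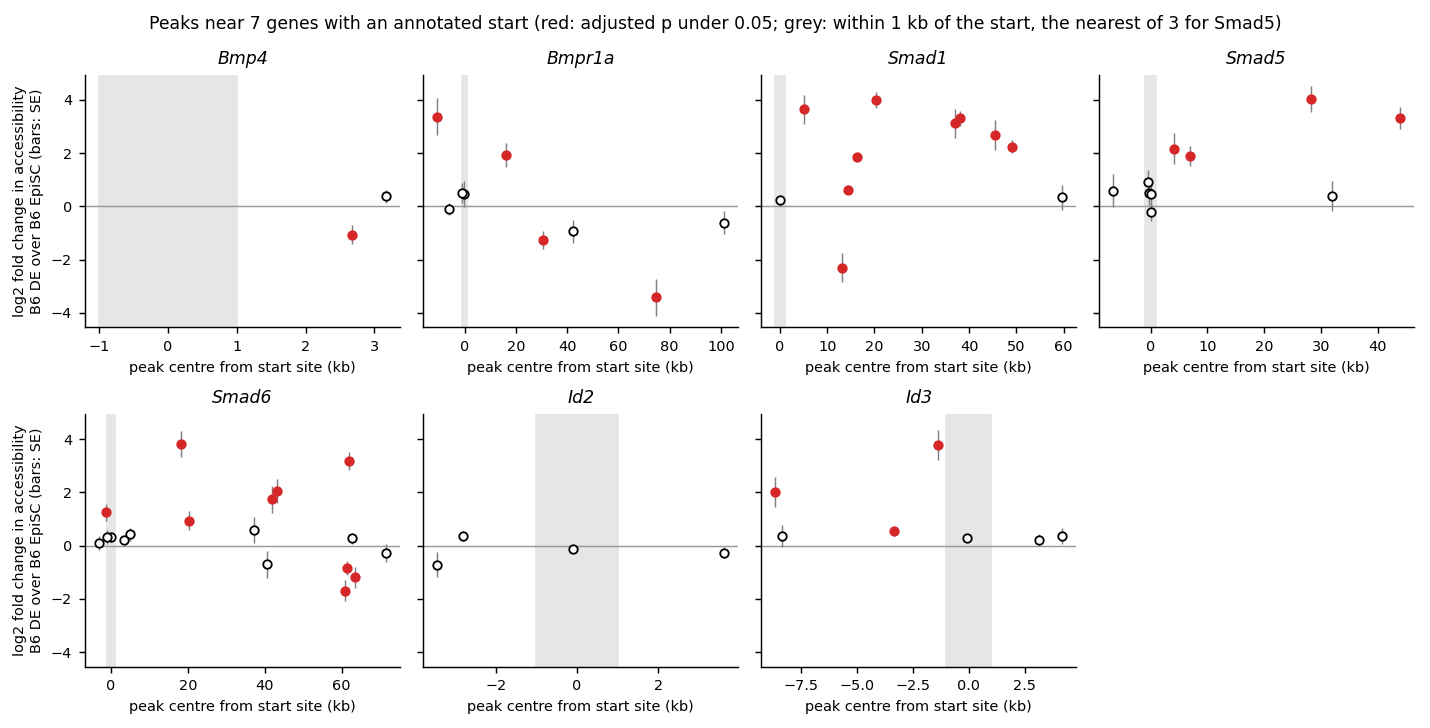
Log2 change in accessibility between B6 DE and B6 EpiSCs (y axis, bars are standard errors) of the tested peaks near 7 members, by the distance of the peak's centre from the start site in kb (x axis, positive into the gene). All 11 points in the grey band around the start are open symbols, which failed the test, and called peaks in red reach 4.03 in Smad5 and 3.99 in Smad1.

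At Id3 the start-site peak (chr4:136143604-136143927), over 218 of the bases printed above, had 36.3, 34.2, 33.9 and 35.1 CPM in EpiSC replicates 1, 4, 44 and 51 and 40.3, 47.5, 43.4 and 37.6 CPM in DE replicates 2, 4, 44 and 51. Every DE library was slightly higher, and the difference of 0.30 (SE 0.14) missed the threshold (adjusted p = 0.0741, edgeR), though without DE replicate 51 it was 0.33 and passed. A small peak 1.37 kb upstream (chr4:136142414-136142486) went from 0.279 to 0.488 CPM in EpiSCs to 7.50, 3.66, 6.80 and 2.04 CPM in DE, a change of 3.78 (SE 0.55, adjusted p = 6.92e-06, edgeR). All Id3 peaks lie within 10 kb of Gm42329 as well, so they may belong to either gene.

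Smad1, with a rise in RNA, had 8 of 11 peaks called higher and 1 lower. Its start-site peak (chr8:79399211-79399602) held 16.0, 18.5, 12.0 and 16.0 CPM in EpiSCs and 16.0, 13.7, 19.1 and 24.5 CPM in DE, with overlap between the groups and a difference of 0.22 (SE 0.21, adjusted p = 0.371, edgeR). A peak 20.42 kb into the gene (chr8:79378871-79379148) rose from 1.54, 3.86, 1.95 and 0.697 CPM to 29.4, 32.0, 33.1 and 38.5 CPM (log2 change 3.99, SE 0.29, adjusted p = 1.66e-09, edgeR). The most accessible peak, 16.36 kb into the gene (chr8:79382885-79383249), rose from 15.4, 25.1, 15.6 and 14.8 CPM to 58.8, 59.7, 58.4 and 78.4 CPM (log2 change 1.85, SE 0.16). In DE replicate 51 peaks on chromosome 8 had a median log2 ratio of 0.39 to the remaining DE libraries. Without that library both changes were smaller, at 3.90 and 1.73.

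Smad5 fell in RNA while peaks in and near it opened. None of its 4 start-site peaks was called, and the one on the first start (chr13:56702879-56703139) had 3.70, 9.65, 4.88 and 6.69 CPM in EpiSCs and 6.91, 5.95, 4.23 and 4.08 CPM in DE. A peak 28.31 kb into the gene (chr13:56731750-56732201) rose from 2.77, 5.99, 0.976 and 0.279 CPM to 49.7, 37.1, 53.1 and 37.3 CPM (log2 change 4.03, SE 0.49, adjusted p = 2.83e-05, edgeR). A second peak 5058 bp past the gene (chr13:56747436-56747841), also within 10 kb of Gm45623, rose by 3.32 (SE 0.41). Neither peak showed overlap between the groups, and at both EpiSC replicate 51 was the lowest.

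Smad6 had 18 peaks, of which 6 were higher and 3 lower. The one at its start (chr9:64021927-64022175), over 116 of the bases printed above, had 19.9, 25.7, 26.1 and 19.4 CPM in EpiSCs and 31.0, 20.1, 30.4 and 30.9 CPM in DE, which overlap (0.32, SE 0.17, adjusted p = 0.115, edgeR). Its most accessible peak, 3.39 kb into the gene (chr9:64018524-64018811), had 31.6, 36.0, 39.5 and 43.6 CPM in EpiSCs and 42.2, 45.3, 40.5 and 47.5 CPM in DE and was not called (0.23, SE 0.14, adjusted p = 0.173, edgeR). Far from the start, 61.87 kb into the gene (chr9:63960030-63960343), accessibility rose from 2.46, 1.42, 0.976 and 0.976 CPM to 14.4, 10.2, 16.3 and 12.5 CPM (log2 change 3.19, SE 0.33, adjusted p = 1.07e-07, edgeR). A neighbouring peak, 60.91 kb into the gene (chr9:63961090-63961200), went the other way, from 4.39 to 5.85 CPM down to 0.874 to 1.98 CPM (log2 change -1.69, SE 0.39, adjusted p = 0.000963, edgeR); it is named here because it was also called between strains.

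Bambi had 2 peaks, both in the gene. The stronger (chr18:3507565-3508051) had 36.8, 41.0, 41.7 and 34.6 CPM in EpiSCs and 44.0, 40.9, 32.5 and 44.0 CPM in DE. Its difference of 0.08 (SE 0.13) changed sign between processing settings. The other (chr18:3509093-3509288) rose from 1.23, 2.03, 1.95 and 1.67 CPM to 15.0, 9.00, 10.3 and 9.33 CPM (log2 change 2.67, SE 0.32, adjusted p = 6.46e-07, edgeR), with no overlap.

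Id1 had 5 peaks, all called, with 2 higher and 3 lower. The peak at one end of the gene (chr2:152736109-152736332) fell from 10.3, 16.7, 13.4 and 14.4 CPM to 5.13, 4.88, 9.36 and 4.08 CPM (log2 change -1.15, SE 0.28, adjusted p = 0.00157, edgeR). A peak 2438 bp past the other end (chr2:152739848-152740063) rose from 5.08, 4.77, 3.90 and 2.93 CPM to 29.2, 29.1, 30.9 and 25.6 CPM (log2 change 2.80, SE 0.22, adjusted p = 2.60e-09, edgeR), and it lies within 10 kb of Gm14162 and Gm32057 too. Chromatin thus changed at and beside a gene whose RNA did not pass the test. Id2, whose RNA fell, had 0 of 4 tested peaks called by edgeR or DESeq2 and 0 with an unadjusted p under 0.05. Its start-site peak (chr12:25096051-25096332), over 240 of the bases printed above, had 34.3, 34.8, 36.8 and 31.5 CPM in EpiSCs and 39.7, 27.5, 32.1 and 25.1 CPM in DE (-0.12, SE 0.16, adjusted p = 0.545, edgeR).

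For the ligands and the receptor the changes followed no single direction. At Bmp2 a peak 7954 bp from the gene (chr2:133570850-133571083), also near Mir3090, rose from 1.85, 2.84, 0.488 and 1.53 CPM to 15.8, 20.5, 16.4 and 13.7 CPM (log2 change 3.21, SE 0.33, adjusted p = 7.27e-08, edgeR). At Bmp4 a peak 2.67 kb into the gene (chr14:46387945-46388054) fell from 3.85, 5.69, 6.10 and 4.88 CPM to 2.76, 2.90, 1.80 and 2.04 CPM (log2 change -1.07, SE 0.36, adjusted p = 0.0146, edgeR). Its stronger neighbour (chr14:46387344-46387665) was not called (0.38, SE 0.24, adjusted p = 0.185, edgeR). Bmpr1a had 2 peaks higher and 2 lower of 9 tested. The one with the smallest p, 74.54 kb into the gene (chr14:34427955-34428053), fell from 3.54, 2.13, 2.44 and 4.04 CPM to at most 0.583 CPM, with 2 DE libraries at 0 (log2 change -3.42, SE 0.69, adjusted p = 0.000232, edgeR), and the most accessible (chr14:34508233-34508632) was not called (-0.09, SE 0.22, adjusted p = 0.751, edgeR).

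**Figure D4:**
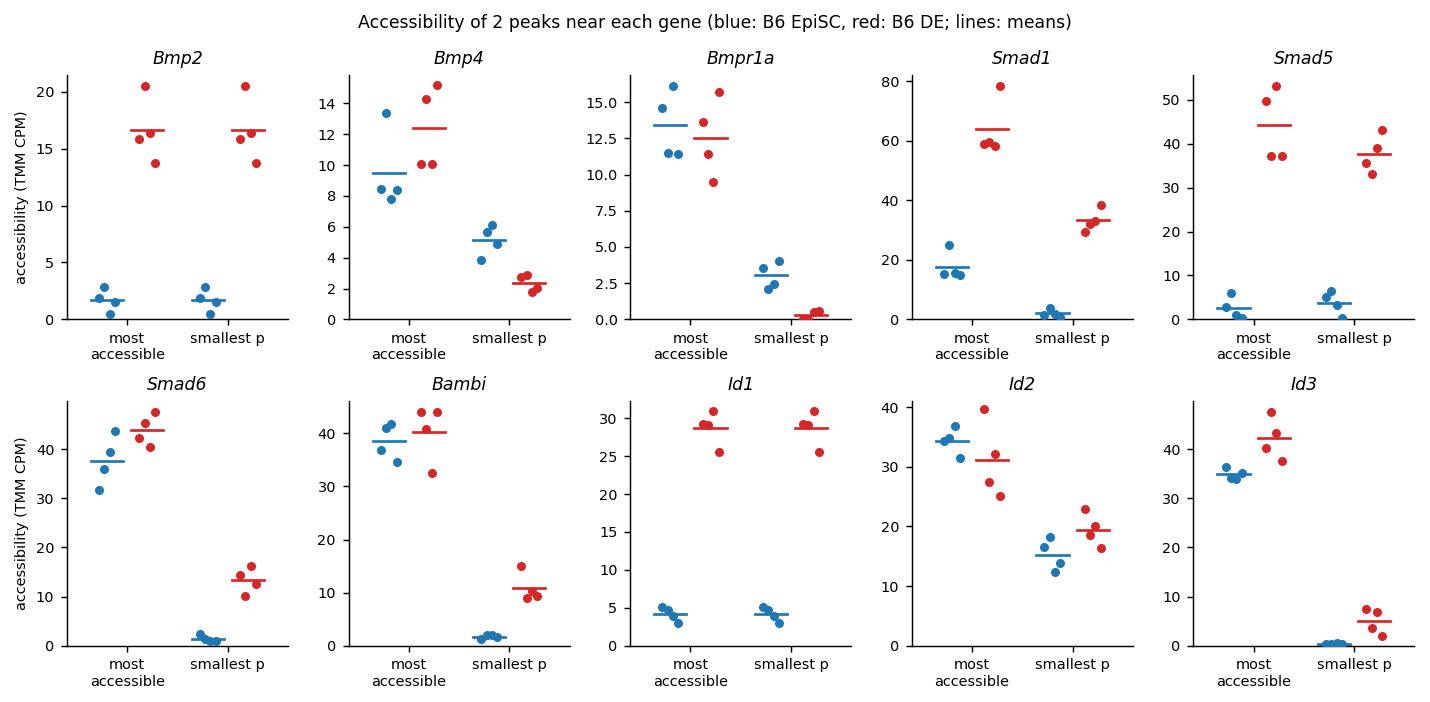
Accessibility (TMM-scaled CPM, each axis from 0) in each B6 EpiSC and B6 DE library of the most accessible nearby peak of each member and of the one with the smallest p, which are the same peak for Bmp2 and Id1; lines are group means. The most accessible peaks of Bambi, Smad6, Id2, Bmp4 and Bmpr1a overlap between the groups. Every peak with the smallest p but that of Id2 separates them. Those peaks were picked by their p in this same comparison, so their separation follows in large part from the choice.

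Among EpiSCs of different strains no member was called. Between PWK and B6 EpiSCs edgeR called 0 of 10, with 3 at an unadjusted p under 0.05, where it called 26.5% of 14822 genes. DESeq2 called 1 of the 10, and of all 14822 genes it called 2328 higher and 2456 lower. Bambi came nearest: PWK libraries had 11.7, 13.0 and 13.1 CPM, above all 5 B6 libraries, and the difference of 0.41 (SE 0.14) gave an adjusted p of 0.0570 by edgeR and 0.0229 by DESeq2. Smad5, at 149, 147 and 138 CPM in PWK, differed by 0.25 (SE 0.10, adjusted p = 0.0963, edgeR) and passed without B6 replicate 1, with which PWK overlapped. Id3, at 11.6, 8.86 and 14.1 CPM in PWK, lay below every B6 library (-0.75, SE 0.34, adjusted p = 0.126, edgeR). The other 7 members had adjusted p-values of 0.138 to 0.798. Among them, Id2 was above every B6 library in all PWK libraries, and Bmpr1a was below every B6 library. PWK and B6 libraries did not overlap for 4 of the 10 members and for 4757 of the 14822 genes.

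In F1 EpiSCs edgeR again called 0 of 10, with 3 at an unadjusted p under 0.05, against 2.84% of all genes. DESeq2 called 2 of the 10, and of all 14822 genes it called 884 higher and 1123 lower. Id2 came nearest, at 39.4, 25.7 and 29.5 CPM, all above B6 (0.49, SE 0.14, adjusted p = 0.0725, edgeR, and 0.0156 by DESeq2). Id3 was uneven, at 5.42, 17.7 and 7.20 CPM (-0.92, SE 0.34, adjusted p = 0.133, edgeR), and was called lower by DESeq2 and, at -1.60, by edgeR without F1 replicate 9. PWK and F1 share the B6 libraries, so these differences are not independent of each other.

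Of the other pathway genes 9 of 46 tested were higher in PWK and 3 lower, a share near the 26.5% of all genes called. Msx1, a homeobox target of BMP, was at 7.10, 6.53 and 9.46 CPM against 0.623 to 1.26 in B6 (log2 change 3.22, SE 0.27, adjusted p = 1.61e-05, edgeR) and kept its call under all 14 alternatives. Acvr1, a type I receptor (0.46, SE 0.09), the co-receptor gene Rgmb (1.01, SE 0.22) and Skil (0.54, SE 0.08), a relative of Ski, were higher, and Ppm1a, which codes for a Smad phosphatase, was lower (-0.82, SE 0.11). Eng (1.20, SE 0.40) and the antagonist gene Nbl1 (1.53, SE 0.50) were higher too, but lost the call under 8 of 14 alternatives each. In F1 3 of 46 were called, against 2.84% of all genes: Acvrl1 (-2.81, SE 0.55), Bmper (-2.13, SE 0.45) and Rgma (-1.93, SE 0.32) were lower. Each lost the call in the fit with the 2 groups alone, but that fit called 0 of all 14132 genes tested in either direction. Feeder markers moved with some of these: their summed level was 6022 to 7625 CPM in PWK, 611 to 872 in F1 and 744 to 6568 in B6, and Eng, Nbl1, Rgma, Acvrl1 and Rgmb were highest among B6 libraries in replicate 51. Fn1 alone held 3004 to 3497 CPM of the sum in PWK and 366 to 524 in F1. The part of feeder RNA in these differences was not tested.

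In the PWK comparison of chromatin 3 of 72 tested peaks near members were called, 1 higher and 2 lower, against 5.11% of 137667 peaks. A peak 43.24 kb into Smad1 (chr8:79356062-79356312) had 12.7 and 10.0 CPM in PWK against 1.35, 1.01, 0.485 and 2.11 CPM in B6 (log2 change 3.10, SE 0.45, adjusted p = 0.000918, edgeR). A peak 30.80 kb into Bmpr1a (chr14:34471632-34471863) had 1.03 and 0.467 CPM against 7.50, 8.30, 10.9 and 6.78 CPM (log2 change -3.56, SE 0.51, adjusted p = 0.000777, edgeR). The peak at that place in the other table (chr14:34471663-34471854) fell in DE (-1.28, SE 0.34, adjusted p = 0.00302, edgeR). The Smad6 peak 60.91 kb into the gene, which fell in DE too, was lower in PWK, at 1.03 and 0.934 CPM against 5.70, 5.06, 4.37 and 5.27 CPM (log2 change -2.42, SE 0.51, adjusted p = 0.0109, edgeR), a call lost without B6 replicate 1 or without the unnumbered PWK library. Both comparisons use the same B6 EpiSC libraries. None of the 15 start-site peaks was called by edgeR or DESeq2, and 1 had an unadjusted p under 0.05. Reads were counted against 1 genome, and the part of sequence differences of the PWK strain in read mapping at these peaks was not tested.

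DBA EpiSCs gave 1 library per assay, so values are given without a test. In RNA 6 of 10 members lay inside the range of the 5 B6 EpiSC libraries, and only Bmp4, at 2.39 CPM against a B6 mean of 5.75, differed from that mean by over 1 log2 unit (-1.23), while it also lay inside the B6 range. Of all genes 7.89% differed by as much. Bambi, at 14.9 CPM, and Smad1, at 34.8 CPM, were above all B6 libraries, and Id2, at 16.7 CPM, and Id3, at 14.5 CPM, below them. Of 74 peaks near members, 1 was higher and 8 lower by over 1 log2 unit, against 22.4% of all peaks in either direction.

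Over the groups with replicates DE came first for each member that rose, and the mean of every EpiSC group lay far below it. That DE lies above B6 EpiSCs follows from this choice of members. For Bambi the means were DE 203 ± 17.2 (n = 4), PWK 12.6 ± 0.779 (n = 3), F1 11.9 ± 1.58 (n = 3) and B6 9.35 ± 1.27 CPM (SD, n = 5). Id3 followed with DE 235 ± 115, B6 19.1 ± 2.79, PWK 11.5 ± 2.62 and F1 10.1 ± 6.61 CPM. Among EpiSC neighbours in these orders PWK and F1 differed by less than their SD for both genes. For Bmp2 B6 EpiSCs came second, at 24.2 ± 18.7 CPM, before F1 at 15.3 ± 4.96 and PWK at 10.8 ± 3.99, all within the spread of the B6 libraries. Only B6 was compared with DE by a test.

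Over the 16 RNA libraries the gene most like each member in log2(CPM + 1) was found by Pearson's r, as a description; 4 of the 16 libraries are DE, and their step from EpiSCs enters every r. For Bambi it was C8b (r = 0.993), for Smad1 Sstr2 (0.995), for Smad6 Slc27a3 (0.989), for Id3 Tmem222 (0.987) and for Bmp2 Rab15 (0.992). For the members that fell, it was Setd5 for Bmpr1a (0.996), Wdr35 for Smad5 (0.982) and Ppp3cb for Id2 (0.979). Bmp4 and Id1 had no partner as close: Nog, the gene of the BMP antagonist noggin, for Bmp4 (0.813) and Cetn4 for Id1 (0.846). Nog, like Bmp4, was highest in B6 EpiSC replicate 4, at 14.7 CPM, with replicate 1 next at 7.12 and replicates 2 and 51 at 0.510 and 0.421.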

How the data were processed

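RNA and ATAC counts are the authors' deposited raw counts per Ensembl gene and per peak, 1 peak set per table. Per the submitters' processing notes, reads were handled with Salmon, featureCounts and DESeq2 for RNA and fastp, Bowtie2, MACS2, featureCounts and DESeq2 for ATAC, on mm10, with versions, annotation and strand setting not given in the sources used here. Whether peak starts count from 0 or 1 is not stated.

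Samples were grouped from the labels. PWK DE (3 samples) is not analysed here, and 17 columns of other samples were not used. In PWK and F1, 1 RNA column each (and 1 PWK ATAC column) was placed by strain only and is called unnumbered. Counts were fitted with edgeR 4.0.16 in R 4.3.3 (TMM, filterByExpr, robust quasi-likelihood), and SE was taken as the log2 change over the square root of F. B6 DE and B6 EpiSC were fitted alone, RNA of B6, PWK and F1 EpiSCs in 1 fit. CPM levels come from 1 TMM scale per table set, with the RNA of all 16 libraries on 1 scale. The fits were tested on simulated data. Alternatives were DESeq2 1.42.0, other scalings and filters, each library left out and the replicate block.

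The named genes are the 10 members and, per comparison, up to 6 other list genes in each direction with the largest change among those called, with a mean log2 CPM of at least 1 and no overlap. Named peaks are, per member, the one with the smallest p and the most accessible. The gene most like each member in level over the libraries is named too. 1 gene that the rule names is not reported here, though counts over the lists include it. Smad4, Eng and Acvrl1 in DE, the start-site peaks of Smad1, Smad5 and Smad6, the Id1 and Bmp2 peaks at or near one end of the gene, and the DE values of the Smad6 and Bmpr1a peaks called between strains fall outside the rule and were chosen after their values were seen. The members and lists were chosen with earlier results of these data known. Gene positions, starts and promoter sequences are RefSeq's, GRCm38.p6 (7 of 10 members had a start).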

Additional observations from a re-analysis of the deposited data

Results flagged for a closer look

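With 56 groups of 4 or 5 libraries checked, 4 values lay far from the rest of their group, and chance alone flags about 1 group in 20. Bmp4 in DE replicate 51 was 3.97 CPM, where the other DE libraries lay at 2.09 to 2.30. The Smad1 peak 16.36 kb into the gene was 78.4 CPM in DE replicate 51, the library with raised chromosome 8, and 25.1 CPM in EpiSC replicate 4, against 14.8 to 15.6 in the other EpiSC libraries. The Bmp4 peak at chr14:46387344-46387665 was 13.4 CPM in EpiSC replicate 4, against 7.81 to 8.47 in the others.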

How the results depend on the processing

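Between DE and EpiSCs of B6, 5 members higher and 3 lower held under all 16 alternatives. Other pathway genes were 9 higher with at least 10 counts in every library. Near members, peaks were 8 higher and 4 lower with at least 10 counts in every library, 59 and 22 within 50 kb, and 7 lower at an adjusted p under 0.01. In PWK, members called were 1 higher by total library size, by DESeq2 and with at least 10 counts in every library, 1 lower (Id3) with only the 2 groups, and 0 to 2 higher leaving out libraries. Other pathway genes there were 5 higher and 1 lower with no filter or only the 2 groups, and 5 to 14 higher and 1 to 4 lower leaving out libraries. In F1, DESeq2 called 1 member in each direction and 4 other genes higher and 11 lower. Other genes lower were 1 with at least 10 counts in every library and 0 with only the 2 groups, a fit that called 0 of all genes. Leaving out libraries gave 0 to 1 member each way and 0 to 4 higher and 0 to 11 lower, as the share of all genes called moved from 0 to 13.2%. PWK peaks near members were 0 and 0 with at least 10 counts in every library, 2 higher and 4 lower within 50 kb, 1 lower at 0.01 and 1 to 2 lower leaving out libraries. The cause of these moves was not tested.

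Of 1220 alternative log2 changes 22 changed sign, all of values that did not pass the test in either fit. Leaving out libraries gave -0.84 to 0.02 for Id1 in DE, -0.01 to 0.09 for Smad1 in PWK, and -0.02 to 0.13 for Smad1 and -0.24 to 0.31 for Id1 in F1. For peaks it gave -0.15 to 0.11 at the stronger Bambi peak in DE, and in PWK -1.08 to 2.13 past Smad5, -0.15 to 0.32 at Smad6, -0.40 to 0.08 at the Id2 start, -0.04 to 0.11 at the Id3 start, -0.28 to 0.25 at Bmp2 and -0.74 to 0.55 at Bmpr1a. By total library size the Bambi peak was at -0.13 and the Bmp2 peak at 0.04.

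Same-numbered DE and EpiSC libraries correlated at 0.088 to 0.237 in RNA and -0.005 to 0.048 in ATAC. In RNA, libraries of unlike number correlated at -0.183 to 0.033, and each DE library correlated best with its own number. The main fits did not pair libraries by number, and whether the numbers mark a shared origin was not tested. With the replicate block 5 members were higher and 3 lower, 25 peaks near members higher and 11 lower, and the Bambi peak was at -0.03, as it was on the same libraries with no block (-0.03). Peaks under about 5 CPM rest on few counts, and small differences there were not detectable at this depth.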
